A study of Mus musculus with 8 samples.

Results

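The nuclear genes named for subunits of respiratory complex I were examined in aged mouse brain carrying an amyloid precursor protein transgene. Members were the genes of the deposited count table whose mouse symbol starts with Ndufa, Ndufab, Ndufb, Ndufc, Ndufs or Ndufv followed by a number, with at least 80 counts over the 8 libraries, so that the assembly factors (Ndufaf) were left out. Of the 56748 genes in the table, 41 symbols matched and 39 met the lower limit on counts. Ndufa11b, with 10 counts, and Ndufs6b, with 39 counts, fell short of it, and the least abundant member was Ndufa4l2 with 712 counts. All 39 members were among the 21588 genes abundant enough to be tested. The choice of members used symbols and summed counts, with no genotype comparison in it.

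The Tg group was 4 libraries of TgCRND8 mice, a line with a transgene for mutant human amyloid precursor protein, driven by a prion protein promoter. The NTg group was 4 libraries of littermates without the transgene. Both groups were 18 months old and of the same value, F, under batch, and their RNA came from frozen, pulverised tissue of 1 side of the brain that the protocols call forebrain. Whether each library is a separate animal is not said outright, so p-values may measure only the spread between these libraries. Tissue was pulverised whole, so fewer cells of a type and less RNA per cell cannot be told apart.

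Library totals were 57129090 to 65242741 counts, and values are CPM, read counts scaled by edgeR to a common library size. App, where transgene reads can be counted in part, had 2532, 2934, 2980 and 2958 CPM in Tg, against 1623, 1486, 1452 and 1390 CPM in NTg (log2 fold change 0.94, SE 0.07, edgeR adjusted p = 0.00146). The forebrain markers Tbr1 and Neurod6 were detected in every library. Tbr1 had 32.2, 55.0, 54.7 and 57.5 CPM in Tg, against 69.8, 45.4, 46.2 and 49.5 CPM in NTg. Neurod6 had 29.0, 56.8, 55.2 and 49.2 CPM in Tg, against 56.2, 48.1, 67.0 and 54.6 CPM in NTg. Tg 1 was the lowest library for both. The 4 markers of cerebellum, a region outside the forebrain, were detected too. They summed to 567, 461, 380 and 509 CPM in Tg, against 306, 221, 315 and 598 CPM in NTg, so NTg 4 was the highest library. All 4 had higher means in Tg, with a median log2 fold change of 0.41, and of 0.73 without NTg 4. Tg 1 stood apart from the other Tg libraries in the forebrain markers, and the members' median and calls are given with and without Tg 1. All 6 microglial markers had higher means in Tg, at 353 to 558 CPM in sum, lowest in Tg 1, against 268 to 345 CPM in NTg. The 8 neuronal markers summed to 5280 to 5935 CPM in Tg and 5722 to 6089 CPM in NTg. Astrocyte markers summed to 3851 to 4215 CPM in Tg and 3687 to 4487 CPM in NTg, a sum led by Slc1a2 (log2 fold change -0.15), while the other 5 of the 6 had higher means in Tg. Aqp4, among them, had 268, 394, 330 and 357 CPM in Tg, against 220, 236, 210.4 and 297 CPM in NTg, with an adjusted p of 0.277 by edgeR and of 0.0208 by DESeq2. Other marker sums leaned lower in Tg: oligodendrocyte 6519 to 7985 CPM in Tg and 7736 to 9564 CPM in NTg, endothelium 116 to 162 CPM in Tg and 153 to 188 CPM in NTg, choroid plexus 312 to 574 CPM in Tg and 601 to 918 CPM in NTg. Red blood cell genes summed to 3003, 489, 732 and 448 CPM in Tg, against 1685, 1282, 1876 and 3271 CPM in NTg. Tg 1 was the highest Tg library for them, and the other Tg libraries lay below all of NTg. The microglial and the choroid plexus sums did not overlap between the genotypes. With all 8 libraries edgeR called 0 markers of these lists. DESeq2 called 4 of the 6 microglial, 3 of the 6 choroid plexus and 1 of the 6 astrocyte markers, against 1.81% of all genes. Without Tg 1 edgeR called 4 microglial, 4 red blood cell, 1 choroid plexus and 1 endothelial marker. In that setting it called 314 of all genes, against 3 of all genes with all 8 libraries. The parts of these levels in the results below were not tested.

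Complex I is the entry point of electrons from NADH into the respiratory chain of the inner mitochondrial membrane, where it couples their transfer to ubiquinone with the pumping of protons. It has a peripheral arm, with an NADH-oxidising N module and a quinone-reducing Q module, and a membrane arm that holds the proton pumps. The catalytic core is split between genomes: the core subunits of the peripheral arm come from nuclear genes, those of the membrane arm from mitochondrial genes, and all accessory subunits from nuclear genes. Neurons depend strongly on respiration, and loss of the subunit Ndufs4 causes encephalopathy in mice.

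No nuclear complex I gene differed between the genotypes at an adjusted p under 0.05. The quasi-likelihood test of edgeR called 0 of 39 members, against 0.0139% of all genes tested. Limma-voom called 0, against 0.0139%, and DESeq2 called 0, against 1.81%. At an unadjusted p under 0.05 edgeR had 1 member, Ndufb9, against 7.36% of all genes, and this was lower in Tg, against 2.68% lower and 4.68% higher over all genes. The smallest adjusted p of any member was 0.487. Fold changes spanned 0.909 (Ndufb9) to 1.04 (Ndufv3) of the NTg level. The data bound the differences closely: for 38 of 39 members the 95% interval lay wholly between 0.8 and 1.25 of the NTg level, which held for 47.7% of all genes tested. Ndufa4l2 was the exception. Leaving it aside, no interval reached below -0.27 or above 0.18 on the log2 scale, a change of -16.9% or 13.5%. The members other than Ndufa4l2 averaged 24.1 to 207 CPM, and the share over all genes was not matched for abundance.

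The small differences leaned one way. The log2 fold change was below 0 for 33 of 39 members, against 50.8% of all genes, and the median was -0.03, against -0.0024 over all genes tested. These members share libraries, so the 33 are not separate observations. The summed level of the 39 genes was 2814, 2708, 2823 and 2860 CPM in Tg, against 2747, 2908, 2866 and 2952 CPM in NTg, or 2801 ± 65.0 and 2868 ± 88.0 CPM (SD, n = 4 each). The genotypes overlapped, with the lowest sum in Tg 2, the highest in NTg 4, and NTg 1 lower than 3 of the Tg libraries. The median log2 fold change was -0.04 without Tg 1, -0.01 without Tg 2, -0.06 without NTg 1 and -0.01 without NTg 4. Without Tg 1, edgeR called 314 of all genes and 0 members. Scaled by library totals alone it was -0.0071, with 26 members below 0, where the median of all genes stood at 0.02.

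**Figure D1:**
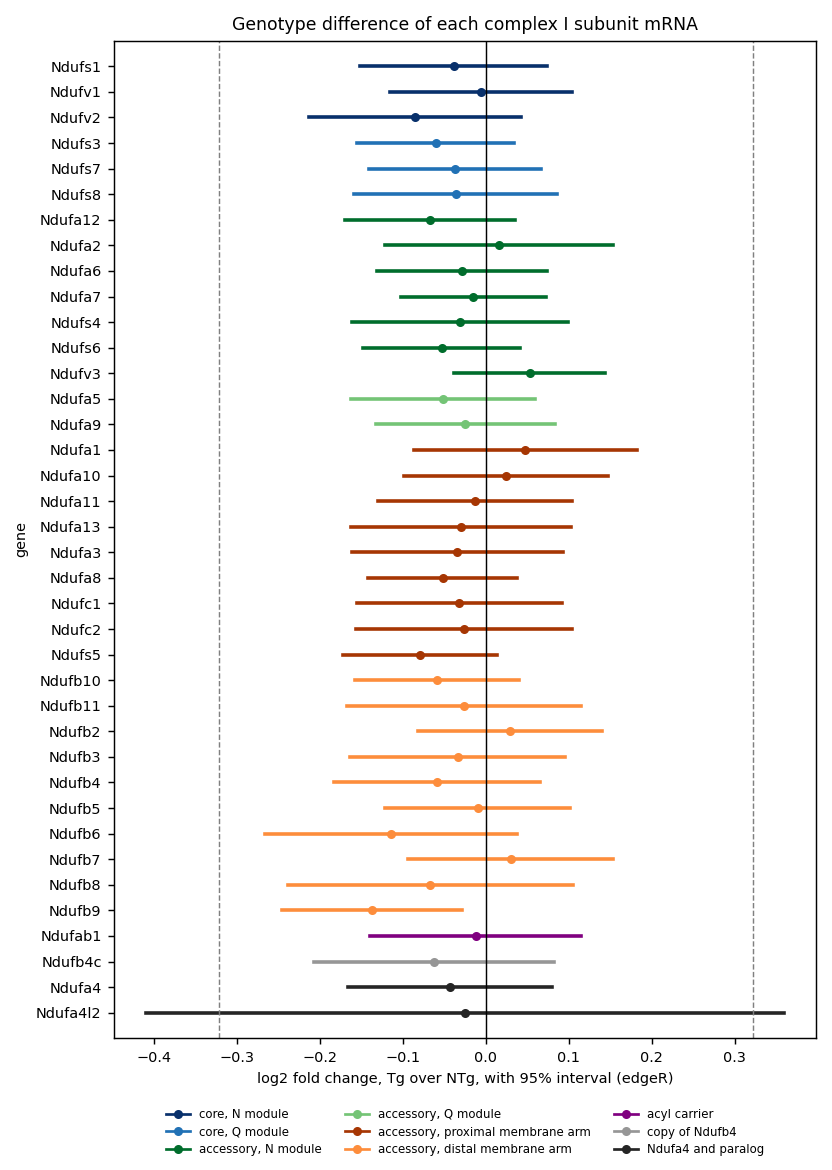
Log2 fold change (Tg over NTg, x axis) of 38 of the 39 genes with its 95% interval from edgeR, grouped by position in the complex. Dashed lines mark 0.8 and 1.25 of the NTg level; all intervals but that of Ndufa4l2 lie between them, and only that of Ndufb9 leaves out 0.

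The 7 nuclear core subunits carry the flavin and the iron-sulphur clusters of the peripheral arm. All 7 had fold changes just below the NTg level, except that Ndufv1 stood at a log2 fold change of 0.019 when scaled by library totals, with a median log2 fold change of -0.04 and the smallest adjusted p at 0.846 (edgeR). Ndufv1, which binds NADH and the flavin, had 133, 133, 135 and 146 CPM in Tg, against 140, 136, 143 and 131 CPM in NTg (log2 fold change -0.0059, SE 0.05). Its direction turned under 6 of 18 alternatives, and its genotypes overlapped, since Tg 4 was the highest library and NTg 4 the lowest. Ndufv2, its partner with an iron-sulphur cluster, had 122, 110, 119 and 113 CPM in Tg, against 114, 124, 121 and 134 CPM in NTg (log2 fold change -0.09, SE 0.06). Here Tg 2 was lowest and NTg 4 highest, and the 95% interval ran from -0.21 to 0.04. The log2 fold change of Ndufv2 was -0.04 without NTg 4 and -0.12 without NTg 1. Ndufs1, the largest subunit, which passes electrons along several clusters, had 158, 146, 157 and 153 CPM in Tg, against 147, 157, 165 and 162 CPM in NTg (log2 fold change -0.04, SE 0.05), with -0.02 without Tg 2 or without NTg 3 and -0.07 without NTg 1.

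The core subunits of the Q module showed the same narrow spread. Ndufs7, which holds the last iron-sulphur cluster before ubiquinone, had 63.7, 61.8, 59.0 and 65.9 CPM in Tg, against 64.3, 66.0, 64.6 and 62.0 CPM in NTg (log2 fold change -0.04, SE 0.05). Tg 4 was the highest Tg library of Ndufs7 and lay above NTg 4, the lowest of the NTg libraries. The log2 fold change of Ndufs7 was -0.01 without Tg 3, -0.02 without NTg 2 and -0.06 without Tg 4. Ndufs3 had 81.2, 80.4, 80.8 and 85.8 CPM in Tg, against 82.1, 86.2, 88.3 and 85.7 CPM in NTg (log2 fold change -0.06, SE 0.04). Of its Tg libraries, 3 were below all of NTg and Tg 4 was not. Ndufs8, a ferredoxin-like subunit, had 61.1, 58.7, 64.3 and 66.3 CPM in Tg, against 59.5, 64.8, 65.3 and 67.1 CPM in NTg (log2 fold change -0.04, SE 0.05), with overlapping genotypes. Its fold change rested on single libraries too, at -0.0069 without Tg 2, -0.01 without NTg 4 and -0.07 without Tg 4 or without NTg 1.

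**Figure D2:**
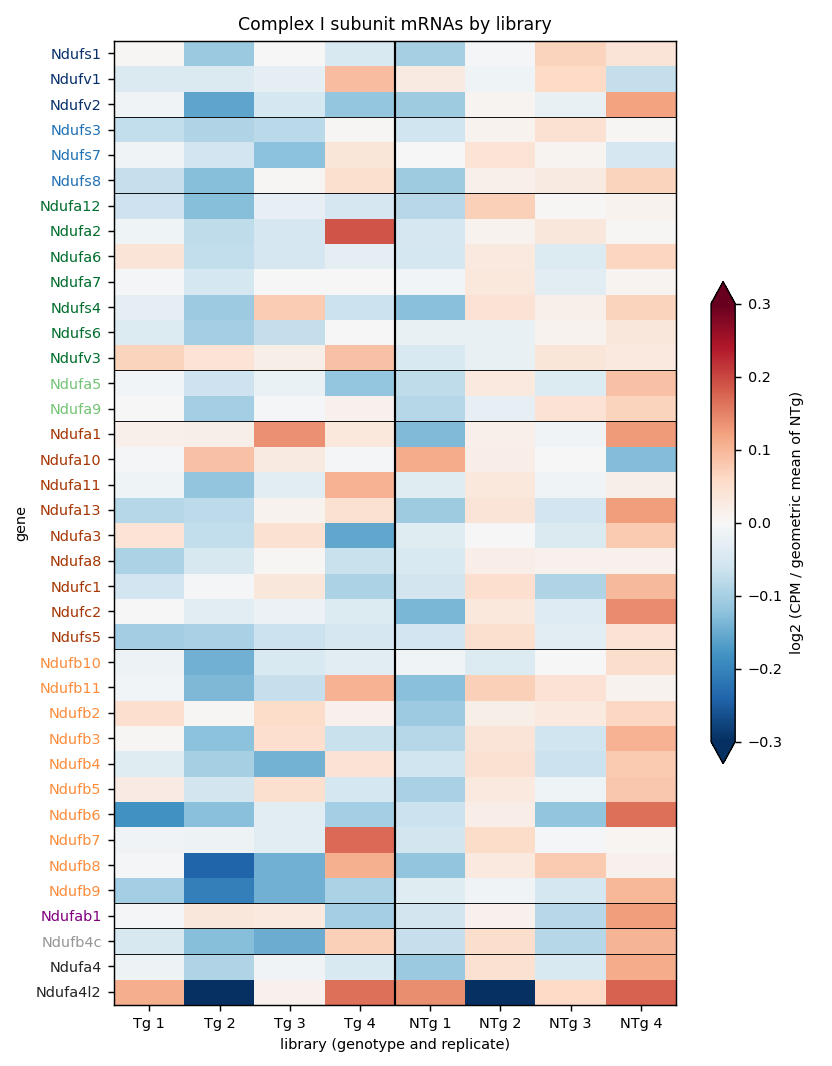
Level of 38 of the 39 genes (rows, grouped by position in the complex) in each library (columns, Tg left of NTg) as log2 of CPM over the geometric mean of NTg, red above and blue below it. Blue cells are most common in Tg 2 and NTg 1 and red cells in NTg 4, and Ndufb9 is below the NTg mean in all 4 Tg libraries.

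Accessory subunits surround the core and serve in its assembly and stability. Of the 7 in the N module, 5 had lower and 2 higher means in Tg, with log2 fold changes of -0.07 (Ndufa12) to 0.05 (Ndufv3) and no adjusted p under 0.858 (edgeR). Ndufv3, the highest fold change of all members, had 52.1, 51.2, 50.3 and 52.8 CPM in Tg, against 48.2, 48.9, 51.0 and 50.8 CPM in NTg (SE 0.04, edgeR adjusted p = 0.881). Of these Tg libraries, 3 were above all of NTg. Ndufs4, whose deletion in mice gives a model of Leigh syndrome, averaged 54.8 ± 3.08 CPM in Tg and 56.0 ± 3.27 CPM in NTg (SD, n = 4 each). Ndufs6, a zinc-binding subunit of the same module, averaged 34.0 ± 1.00 CPM in Tg and 35.3 ± 0.680 CPM in NTg. The 2 accessory subunits of the Q module, Ndufa5 and the dehydrogenase-like Ndufa9, both had slightly lower means in Tg, with log2 fold changes of -0.05 and -0.02.

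Along the membrane arm, 7 of 9 members nearest the peripheral arm had lower and 2 higher means in Tg. Ndufs5, of the intermembrane space side, had the smallest p among them, at 70.1, 70.4, 72.1 and 72.8 CPM in Tg, against 72.4, 77.9, 73.7 and 77.7 CPM in NTg (log2 fold change -0.08, SE 0.04, edgeR adjusted p = 0.752). Only Tg 4 and NTg 1 kept its genotypes from separating, and the gene is named here for its p, after its values were seen. Ndufa1, a small subunit anchored in the membrane, had the highest fold change of the 9, with 41.3, 41.4, 44.9 and 41.8 CPM in Tg, against 37.3, 41.3, 40.6 and 44.7 CPM in NTg (log2 fold change 0.05, SE 0.06). NTg 1 was its lowest library, and the log2 fold change was 0.0048 without it, 0.02 without Tg 3 and 0.09 without NTg 4. Ndufa13, also known as GRIM-19, averaged 97.1 ± 4.42 CPM in Tg and 99.1 ± 7.11 CPM in NTg (SD, n = 4 each).

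At the far end of the membrane arm, 8 of 10 members had lower and 2 higher means in Tg, with a median log2 fold change of -0.05. Ndufb9, a subunit of the LYR motif family, had 60.3, 56.1, 58.5 and 60.5 CPM in Tg, against 63.0, 64.2, 62.3 and 69.3 CPM in NTg. Every Tg library was below every NTg library, which held for 1 of 39 members (2.56%) and for 1.58% of all genes tested, while 0 members separated with Tg above NTg, against 2.62% of all genes. The log2 fold change of Ndufb9 was -0.14 (SE 0.05, 95% interval -0.25 to -0.03), with an edgeR p of 0.0187 and an adjusted p of 0.487. It did not pass the test, and was -0.15 to -0.10 when any 1 library was left out. In the annotation, 20.3% of the 75-base windows of its transcript also occur in Gm49356, so part of its reads may be counted elsewhere. Ndufb6 had 22.0, 22.9, 24.4 and 23.3 CPM in Tg, against 23.9, 25.3, 23.0 and 28.0 CPM in NTg (log2 fold change -0.11, SE 0.07, edgeR adjusted p = 0.818). NTg 1 and NTg 3 lay inside the Tg range of Ndufb6 and NTg 4 was the highest library, without which the log2 fold change was -0.055. Ndufb10, with cysteine pairs facing the intermembrane space, had 88.0, 80.4, 86.1 and 86.9 CPM in Tg, against 88.2, 86.3, 88.9 and 92.3 CPM in NTg (log2 fold change -0.06, SE 0.04, and -0.03 without Tg 2), with overlap. Ndufb7 had 44.5, 44.3, 43.8 and 50.4 CPM in Tg, against 43.1, 46.5, 44.7 and 45.0 CPM in NTg (log2 fold change 0.03, SE 0.06), where Tg 4 was the highest library and the log2 fold change without it was -0.020.

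Ndufb4, also of the far membrane arm, is matched by Ndufb4c, which the annotation lists as a processed pseudogene on chromosome 15, while Ndufb4 is on chromosome 16. The 390 bases of the Ndufb4c transcript (GENCODE M21) occur whole in the Ndufb4 transcript, at positions 95 to 484 of 971, so that all 316 of its 75-base windows are shared. Their first 120 bases, shown because the identity decides what the counts can tell, are given from the start codon, which is in capitals.
Ndufb4: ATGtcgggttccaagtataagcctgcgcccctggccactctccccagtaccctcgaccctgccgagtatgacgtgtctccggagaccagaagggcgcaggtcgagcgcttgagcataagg
Ndufb4c: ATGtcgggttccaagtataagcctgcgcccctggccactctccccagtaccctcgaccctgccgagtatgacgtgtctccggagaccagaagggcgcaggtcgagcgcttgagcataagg
Counts of Ndufb4c were 78.5%, 77.6%, 78.7% and 80.7% of those of Ndufb4 in the Tg libraries, against 78.6%, 79.5%, 77.9% and 80.4% in the NTg libraries. The ratio hardly moved with library or genotype. Reads within the shared stretch cannot be assigned to either gene by sequence, so both levels are uncertain. Ndufb4 averaged 55.3 ± 3.11 CPM in Tg and 57.6 ± 2.90 CPM in NTg, and Ndufb4c averaged 43.7 ± 3.08 CPM in Tg and 45.6 ± 2.92 CPM in NTg (SD, n = 4 each). Without Ndufb4c the median log2 fold change of the members stayed at -0.03. A share of 22.0% to 31.3% of windows occurred in another gene for Ndufb6, Ndufs3, Ndufa13, Ndufs5 and Ndufa12 too.

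Ndufab1, the mitochondrial acyl carrier protein, sits in both arms of the complex and also serves fatty acid synthesis. It averaged 48.0 ± 2.06 CPM in Tg and 48.4 ± 3.17 CPM in NTg (SD, n = 4 each; log2 fold change -0.01). Ndufa4 has a complex I name but is a subunit of cytochrome c oxidase, complex IV. It had 208, 197, 209 and 204 CPM in Tg, against 195, 217, 203 and 227 CPM in NTg (log2 fold change -0.04, SE 0.05), so its NTg libraries included both the lowest and the highest. Without NTg 4 its log2 fold change was -0.0030, and without NTg 1 it was -0.08. Ndufa4l2, its hypoxia-induced paralog, had 1.60, 1.13, 1.50 and 1.66 CPM in Tg, against 1.63, 1.14, 1.55 and 1.68 CPM in NTg. In each genotype, replicate 2 was lowest and replicate 4 highest. With so few counts its 95% interval ran from -0.41 to 0.36, so a change of up to about that size was not detectable at this depth. Without Ndufa4 and Ndufa4l2, 31 members had a log2 fold change below 0. Ndufb1, a subunit of the far membrane arm, was not among the symbols matched. The annotation types the transcript of Ndufb1-ps, which the symbol pattern did not take in, as a bidirectional promoter RNA with no coding sequence, and 9.40% of its windows occur in Cpsf2, so its counts are not given as those of the subunit.

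Levels were set side by side per kilobase of the annotated principal transcript, over all 8 libraries. Ndufa4 was highest at 340 CPM per kilobase, then Ndufb10 at 119. Ndufs1, of the core, stood at 58.4 CPM per kilobase, and the median of all 39 members was 76.0. Ndufa4l2, at 1.59 CPM per kilobase, was far below all others. The choice of transcript decides some of these values. Ndufb2 stood at 6.41 CPM per kilobase with the long transcript used here and at 61.6 with the shortest principal one, Ndufc1 at 31.3 and 124, and Ndufs5 at 108 and 140. With the shortest transcripts the 3 highest were Ndufa4, Ndufs5 and Ndufc1.

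**Figure D3:**
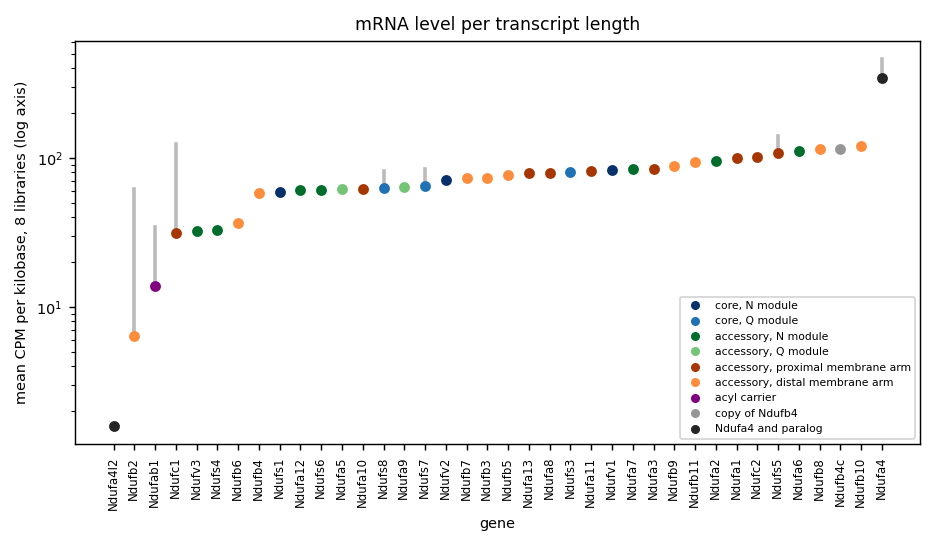
Level of 38 of the 39 genes in CPM per kilobase of transcript (log axis), as the mean over all 8 libraries, coloured by position in the complex. Grey bars run to the value with the shortest principal transcript; most genes lie within a few-fold of the median of 76.0, with Ndufa4 above and Ndufa4l2 far below.

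The members varied little between libraries of 1 genotype, with a median coefficient of variation of 5.18%. It was 10.5% over all genes tested, which were not matched for abundance. The genes of complexes II to V and the assembly factors varied as little, with medians of 4.09% to 5.97% for these lists. What variation there was ran with the library. Tg 2 was the lowest of the 8 libraries for 18 members and NTg 1 for 9, while NTg 4 was the highest for 21 and Tg 4 for 7. Relative to the NTg mean, the mean log2 level of the members was -0.02, -0.09, -0.02 and 0.0002 in Tg, and -0.06, 0.01, -0.0081 and 0.05 in NTg. NTg 1 and NTg 4, of 1 genotype, were further apart than the genotype means.

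Base composition moved with these levels in several libraries. Across the 39 members, Pearson's r between GC content and log2 level relative to the NTg mean was 0.58 in Tg 4, -0.39 in Tg 3, 0.50 in NTg 1 and -0.38 in NTg 4, and -0.26 to 0.28 in the other 4. Members of 1 library share its depth and preparation. Among other genes with a transcript GC content over 55%, the median log2 level relative to the NTg mean was 0.09 in Tg 4 and -0.08 in NTg 4, and among those under 45% it was -0.07 in Tg 4 and 0.09 in NTg 4. Tg 3 leaned like NTg 4, with -0.06 over 55% and 0.05 under 45%, and in NTg 1 these medians were 0.02 and -0.03. The 12 members over 55% stood at 0.07 in Tg 4 and 0.02 in NTg 4, and the 6 members under 45% at -0.07 in Tg 4 and 0.10 in NTg 4. These are small classes. Members had a median GC content of 52.1% and a median length of 908 bases, against 49.8% and 2554 bases over all genes tested. With the GC trend removed from each library, the median log2 fold change of the members was -0.04 and 33 of 39 were still below 0. Among the other genes with transcripts of up to 1000 bases the median log2 fold change was 0.02, and among the 23 members of that length it was -0.04.

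**Figure D4:**
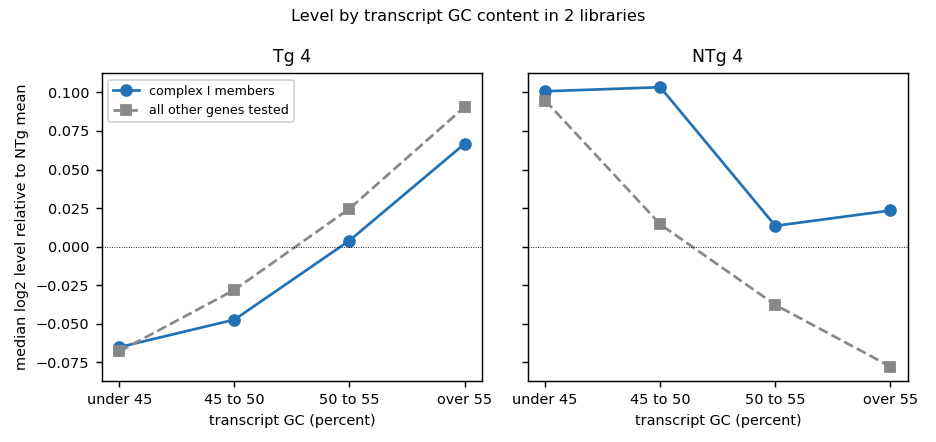
Median log2 level relative to the NTg mean (y axis) by class of transcript GC content (x axis, percent) in Tg 4 (left) and NTg 4 (right), for the complex I genes and all other genes tested. The other genes go up with GC content in Tg 4 and down in NTg 4, where they lie at 0.09 under 45% and at -0.08 over 55%.

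The mitochondrial genes for the 7 membrane arm core subunits varied more between libraries, with a median coefficient of variation of 10.3%. All 7 had lower means in Tg, where 50.8% of all genes tested had a log2 fold change below 0. The 7 had a median log2 fold change of -0.11, and 0 were called by edgeR, limma-voom or DESeq2, or had an unadjusted p under 0.05. Their summed level was 18918, 17380, 17839 and 16972 CPM in Tg, against 16468, 17775, 19377 and 22554 CPM in NTg. NTg 4 was the highest and NTg 1 the lowest library, so the genotypes overlapped. The lower means rested on NTg 4: without it 4 were lower and 3 (mt-Nd3, mt-Nd4 and mt-Nd6) higher, with a median log2 fold change of -0.0026, while without NTg 1 the median was -0.18. mt-Nd1 averaged 3701 ± 95.6 CPM in Tg and 4026 ± 450.0 CPM in NTg, and mt-Nd2 averaged 3307 ± 108 CPM in Tg and 3596 ± 425 CPM in NTg (SD, n = 4 each). mt-Nd5 had 3712, 2934, 3162 and 2999 CPM in Tg, against 2766, 3158, 3707 and 4428 CPM in NTg (log2 fold change -0.13, SE 0.14). NTg 1 and NTg 4 were also the ends of the range for the summed nuclear members of NTg.

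The assembly factors, which build complex I from its modules, gave 11 lower and 6 higher means in Tg among 17 tested, with a median log2 fold change of -0.02 and 0 called by edgeR or at an unadjusted p under 0.05. Without NTg 4 the median was -0.0009, and without Tg 4 it was -0.0098. Tmem70 was furthest down, with 37.6, 31.5, 36.1 and 32.2 CPM in Tg, against 40.1, 38.0, 33.5 and 40.1 CPM in NTg (log2 fold change -0.14, SE 0.08, edgeR adjusted p = 0.779). In Ndufaf5, which modifies Ndufs7, the log2 fold change was -0.11 (SE 0.07, edgeR adjusted p = 0.821). Of those higher in Tg, Ndufaf3 had a log2 fold change of 0.07 (SE 0.06, edgeR adjusted p = 0.890). Ndufaf8 was furthest up, at 0.10 (SE 0.09, edgeR adjusted p = 0.910). The other respiratory complexes stood close by. Complex II had a log2 fold change below 0 for 4 of 4 genes and complex III for 7 of 9. Complex IV had it for 9 of 10 and the ATP synthase for 15 of 17, against 50.8% of all genes tested. Their median log2 fold changes were -0.06 for complex II, -0.02 for complex III, -0.03 for complex IV and -0.05 for the ATP synthase, and none of these genes was called by edgeR, limma-voom or DESeq2, nor had an unadjusted p under 0.05. Without NTg 4 the ATP synthase had 10 of 17 lower and a median of -0.0064, and without Tg 2 it had 11 of 17 lower and -0.03, where complex III stood at -0.0082 with 5 of 9 lower. Complex II stood at -0.03 without Tg 2. Complex III stood at -0.0087 without NTg 2, at -0.05 without Tg 4 and without NTg 4 at -0.04, and without NTg 1 it was at -0.06 and complex IV at -0.05. Uqcr10, a small subunit of complex III, had 61.0, 60.7, 61.5 and 60.9 CPM in Tg, against 61.6, 64.1, 63.1 and 63.9 CPM in NTg (log2 fold change -0.05, SE 0.04), with an adjusted p of 0.868 by edgeR. The genotypes of Uqcr10 did not overlap, by a margin smaller than the spread within NTg. Every Tg library below every NTg library held for 1.58% of all genes tested. The smallest adjusted p in the other complexes were 0.878 for Sdhc of complex II, 0.868 for Cox7b of complex IV and 0.788 for Atp5g3 of the ATP synthase (edgeR). These lists share the libraries, so their leaning is not independent of that of complex I.

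**Figure D5:**
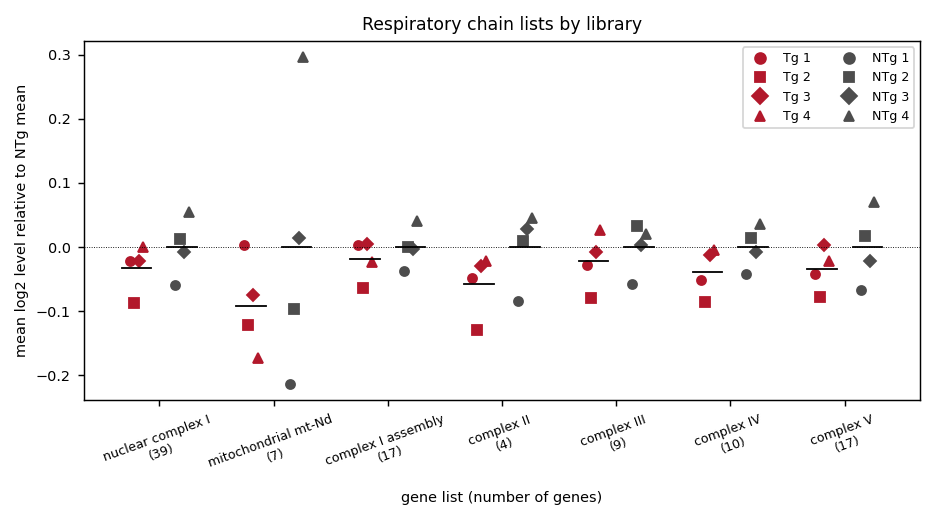
Mean log2 level of each gene list in every library relative to the NTg mean, Tg libraries left of NTg. The nuclear lists lie between -0.13 and 0.07, each lowest in Tg 2 among Tg and in NTg 1 among NTg, and the mitochondrial list spans from -0.21 in NTg 1 to 0.30 in NTg 4.

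Of 9 regulators of mitochondrial biogenesis, 6 had lower means in Tg, where 50.8% of all genes tested had a log2 fold change below 0. EdgeR, limma-voom and DESeq2 called 0 of the 9. By edgeR 1 of them had an unadjusted p under 0.05, against 7.36% of all genes (2.68% lower in Tg). Without NTg 4 or without Tg 1, 4 of the 9 were lower. The 1 was Ppargc1a, the coactivator PGC-1α, which drives transcription of respiratory genes, with 60.2, 60.6, 62.0 and 61.0 CPM in Tg, against 63.7, 66.1, 67.6 and 68.9 CPM in NTg (log2 fold change -0.13, SE 0.04, edgeR adjusted p = 0.382). Every Tg library was below every NTg library, which held for 1.58% of all genes tested, yet Ppargc1a did not pass the test. Nrf1, the respiratory factor that binds many of these promoters, had 14.5, 15.3, 15.9 and 12.8 CPM in Tg, against 15.3, 14.5, 15.7 and 15.7 CPM in NTg (log2 fold change -0.07, SE 0.08), and Tfam, which packages and transcribes mitochondrial DNA, had a log2 fold change of -0.06 (SE 0.05).

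Promoter sequence, which the choice of members did not use, was searched for 5 motifs. Windows of 300 bases (250 before to 50 after the start, RefSeq, GRCm38.p6) were at hand for 33 of the 39, with 35 windows. Ndufa2, Ndufa4l2, Ndufb4c, Ndufb9 and Ndufs1 were among the others. Read on both strands, the NRF1 motif (GCGC and TGCGC joined by any 1 base) was in 22.9% of member windows, against 4.60% of 32851 windows of all genes. The YY1 motif AAGATGGCG was in 14.3%, against 1.40%. The Sp1 motif GGGCGG was in 45.7%, against 35.7%, the ETS motif CCGGAAG in 11.4%, against 8.86%, and the ERR motif TCAAGGTCA in 0 windows, against 0.423%. At least 1 of these motifs was in 71.4% of member windows, against 41.0%. These are shares of windows, not of genes, and the windows of all genes were not matched to the members for abundance or GC content. Ndufa5 had overlapping windows that hold the same NRF1 and Sp1 sites, so these sites were counted more than once. A match is a run of letters and was not tested for binding.
Of 4 windows shown for their range of motifs, all on the minus strand, Ndufb4 (chr16:37654319-37654618) holds 3 NRF1 motifs and 1 Sp1 motif, Ndufs6 (chr13:73328433-73328732) NRF1 and YY1, Ndufs3 (chr2:90904672-90904971) 2 ETS and 2 Sp1 motifs, of which 1 of each overlap, and Ndufb6 (chr4:40279372-40279671) 1 ETS and 2 Sp1. Capitals mark the motifs on either strand.
Ndufb4 promoter: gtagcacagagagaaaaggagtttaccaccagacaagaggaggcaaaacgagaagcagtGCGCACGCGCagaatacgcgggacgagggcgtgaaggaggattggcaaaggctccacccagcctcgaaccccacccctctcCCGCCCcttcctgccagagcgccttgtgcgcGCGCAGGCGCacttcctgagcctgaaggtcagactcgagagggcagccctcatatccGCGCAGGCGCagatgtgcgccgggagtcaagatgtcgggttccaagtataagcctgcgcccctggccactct
Ndufs6 promoter: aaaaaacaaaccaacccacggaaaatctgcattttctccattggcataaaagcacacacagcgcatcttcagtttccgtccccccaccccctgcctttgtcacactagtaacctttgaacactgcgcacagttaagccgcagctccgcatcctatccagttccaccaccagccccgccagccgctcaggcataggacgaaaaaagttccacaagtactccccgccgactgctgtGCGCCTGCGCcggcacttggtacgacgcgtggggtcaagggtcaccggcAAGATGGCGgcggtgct
Ndufs3 promoter: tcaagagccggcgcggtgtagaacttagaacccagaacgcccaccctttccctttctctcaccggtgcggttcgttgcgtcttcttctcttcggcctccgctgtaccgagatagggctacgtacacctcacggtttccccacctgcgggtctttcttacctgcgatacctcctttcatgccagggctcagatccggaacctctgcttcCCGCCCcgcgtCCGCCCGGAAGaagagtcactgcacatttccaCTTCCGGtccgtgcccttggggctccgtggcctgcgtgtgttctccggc
Ndufb6 promoter: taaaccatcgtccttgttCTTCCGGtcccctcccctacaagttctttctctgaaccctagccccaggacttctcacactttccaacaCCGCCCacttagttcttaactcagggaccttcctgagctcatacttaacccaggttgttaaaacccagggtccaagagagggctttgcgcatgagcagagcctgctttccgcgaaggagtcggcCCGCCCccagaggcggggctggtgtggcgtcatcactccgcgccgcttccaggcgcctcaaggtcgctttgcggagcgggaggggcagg
The Ndufb4 window ends in the first codons shown above for its transcript and for Ndufb4c.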

How the data were processed

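Polyadenylated RNA of 4 Tg and 4 NTg libraries was sequenced as paired 75-base reads with a kit that does not mark strand, per the labels' protocols. The authors deposited raw counts per Ensembl gene, with no normalization. The build GRCm39 and the tools STAR and DESeq2 are named in the submitters' processing notes, while the counter and annotation release are not named there. Symbols were matched by Ensembl identifier for 52073 genes. Transcript length, GC content and shared windows come from GENCODE M21 on GRCm38, an older build, so no coordinates are given for the counts.

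Genes were filtered with filterByExpr (minimum count 10, minimum total 15), scaled with TMM factors and tested with the quasi-likelihood F test of edgeR 4.0.16 in R 4.3.3, genotype alone, with Benjamini-Hochberg adjustment over all 21588 genes and a threshold of 0.05. Intervals are 95% from the same fit, and cover the spread between these libraries. DESeq2 1.42.0, limma-voom (limma 3.58.1), other scalings and filters, robust dispersion, the replicate number as a block and each library left out in turn were alternatives. Removal of the GC trend, omission of Ndufb4c and leaving out libraries for whole gene lists were added after seeing the data. The test was checked on simulated counts. The changes set in them were larger than any fold change of the members, so recovery of differences that small was not checked.

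Values in every library are given for the core subunits, the members with an unadjusted p under 0.05, the largest fold changes in either direction, the most abundant per length, Ndufa4 and Ndufa4l2, and for up to 3 genes of other lists. One member and some marker genes are counted in the totals and not reported by name here. The members and lists were chosen with earlier results of these data known. Counts of each pair of libraries of 1 genotype differed beyond sampling noise (chi-square per degree of freedom 11.1 to 49.8).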

Additional observations from a re-analysis of the deposited data

Results flagged for a closer look

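Of 52 sets of 4 libraries looked at, 4 held a library far from the other 3, and chance gives about 1 in 20. Ndufv1 stood at 146.4 CPM in Tg 4, where the other Tg libraries held 133 to 135 CPM. The gap was 0.889 of the range of the group. Ndufs3 stood at 85.8 CPM in Tg 4, where the other Tg libraries held 80.4 to 81.2 CPM, with a gap of 0.840 of the range. Ndufb7 stood at 50.4 CPM in Tg 4, where the other Tg libraries held 43.8 to 44.5 CPM, with a gap of 0.897 of the range. Ndufa1 stood at 44.9 CPM in Tg 3, where the other Tg libraries held 41.3 to 41.8 CPM, with a gap of 0.873 of the range. Of the 4, 3 lie in Tg 4, and Tg 4 is the library in which genes of high GC content were high. The part of base composition in these values was not tested.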

How the results depend on the processing

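No member was called under any of the alternatives run, and the median log2 fold change of the members stayed below 0 in all of them, at -0.06 to -0.01 with 1 library left out and at -0.04 to -0.0071 otherwise. The number of members below 0 was 27 to 33 with 1 library left out and 26 by library totals. The number of all genes called by edgeR was 3, against 352 with DESeq2, 127 with no filter on low counts and 1 with the replicate block, and 3 to 314 with 1 library left out (314 without Tg replicate 1). The cause was not tested. The deviations of same-numbered libraries from their genotype means had correlations of 0.07, -0.03, 0.16 and -0.0089. Each rests on 1 library of each genotype, so these values cannot tell whether the samples were paired. With the block the median of the members was -0.03. Ndufv1, Ndufa4l2 and Ndufb7 changed sign. By library totals Ndufv1 and Ndufa4l2 stood at 0.019 and 0.00070. With 1 library left out Ndufv1 ranged from -0.040 to 0.013, Ndufa4l2 from -0.14 to 0.081 and Ndufb7 from -0.020 (without Tg replicate 4) to 0.050. Whichever library was left out, 23 of the 39 members kept their direction, and 16 changed sign at least once: Ndufa10, Ndufa11, Ndufa13, Ndufa2, Ndufa3, Ndufa9, Ndufab1, Ndufb11, Ndufb2, Ndufb3, Ndufb5, Ndufc1 and Ndufc2 beside those 3. Leaving out libraries for all members and gene lists was added after seeing the data. Shared windows with near copies and the unstated counting rule limit what Ndufb4, Ndufb4c and Ndufb9 counts can tell.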

Other observations

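Ndufa10, a membrane arm subunit with a nucleoside kinase fold, went against the order of libraries that most members followed. It was lowest in NTg 4, at 112 CPM, the library in which 21 members were highest, and highest in NTg 1, at 133 CPM. Its other levels were 122, 130.5, 125 and 122 CPM in Tg and 124 and 123 CPM in NTg. Its log2 fold change was 0.02, and -0.016 without NTg 4. The processed pseudogene Ndufab1-ps shares 59.9% of its 75-base windows with Ndufab1 and was counted at 8.12, 8.01, 8.86 and 7.84 CPM in Tg, against 9.35, 8.09, 8.51 and 9.37 CPM in NTg. Among members whose windows are shared in part, Ndufb8 had the widest Tg range, from 67.2 CPM in Tg 2 to 85.4 CPM in Tg 4, and lay at 73.0 to 83.7 CPM in NTg. These genes were chosen after their values were seen.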
